A study of Homo sapiens with 6 samples.

Results

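Integrin beta subunits are the cell surface receptor chains encoded by ITGB1 to ITGB8. The deposited polysome sequencing (polysome-seq) results of 30345 genes were searched for these 8 symbols, and all 8 were found and were among the 15634 genes that carry an adjusted p. Polysome-seq reads the RNA in sucrose gradient fractions that hold several ribosomes, here pooled from all fractions heavier than the monosome peak. The cells were OS-RC-2 (OSRC-2 in the study), an established clear cell renal cell carcinoma (ccRCC) line that lacks VHL in both the treated and the control group. There were 3 biological replicates with 2 µM PT2399, an inhibitor of the transcription factor HIF2, and 3 with its vehicle, all harvested after 72 h. The treatment label of the PT2399 samples says mM, whereas the treatment protocol and the methods of the study give µM, which is used here.

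An integrin is a pair of an alpha and a beta chain that binds matrix proteins or other cells outside the cell and, through the short tail of the beta chain, the actin cytoskeleton inside. ITGB1 pairs with most alpha chains and serves adhesion to collagen, laminin and fibronectin. ITGB3, ITGB5, ITGB6 and ITGB8 share the partner alpha V (ITGAV), and several of these pairs recognise the RGD motif of fibronectin and vitronectin or of latent TGF-beta. ITGB4 pairs with ITGA6 in the hemidesmosome, where it is tied to keratin filaments, and ITGB2 and ITGB7 are known from leukocytes. The comparison asks which of these RNAs in the polysome fractions differ after 72 h with the HIF2 inhibitor PT2399.

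All fold changes are the log2 values of PT2399 over vehicle from the authors' deposited DESeq2 results, with the deposited standard error (SE). Values of single libraries were not used here, so no spread between libraries stands beside a fold change, and whether the groups overlap cannot be stated. Genes are named called where the authors' two-sided Wald test, with Benjamini-Hochberg adjustment over all tested genes, gave an adjusted p not above 0.05. The level in each group is the pair of values that has the deposited mean as its average and the deposited fold change as its ratio. Summed over genes, the deposited means came to 45358629 normalized counts for an average library. Total RNA of the same cells is not part of these values, so a change in the amount of an RNA and a change in its share on polysomes cannot be told apart, nor can fewer cells with an RNA and less of it per cell.

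Of the 8 beta subunits, 3 were higher (ITGB3, ITGB6 and ITGB1), 2 were lower (ITGB4 and ITGB8) and 3 were not called (ITGB5, ITGB7 and ITGB2). Across all tested genes 23.0% were called, 11.3% higher and 11.7% lower. The called share rose with abundance, to 34.4% where the mean reached 1000 normalized counts against 13.2% below that. Of the 5 subunits that reached 1000, 4 were called, and of the 3 below it, 1 was called. The median log2 fold change of the subunits was 0.05, against 0.00 over all tested genes, and the median of their absolute values was 0.23 against 0.16. Both ITGB3 and ITGB4 were also changed by a log2 fold change of 1 or more in size, as were 2.05% of tested genes, and the other 3 calls were of smaller size.

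**Figure D1:**
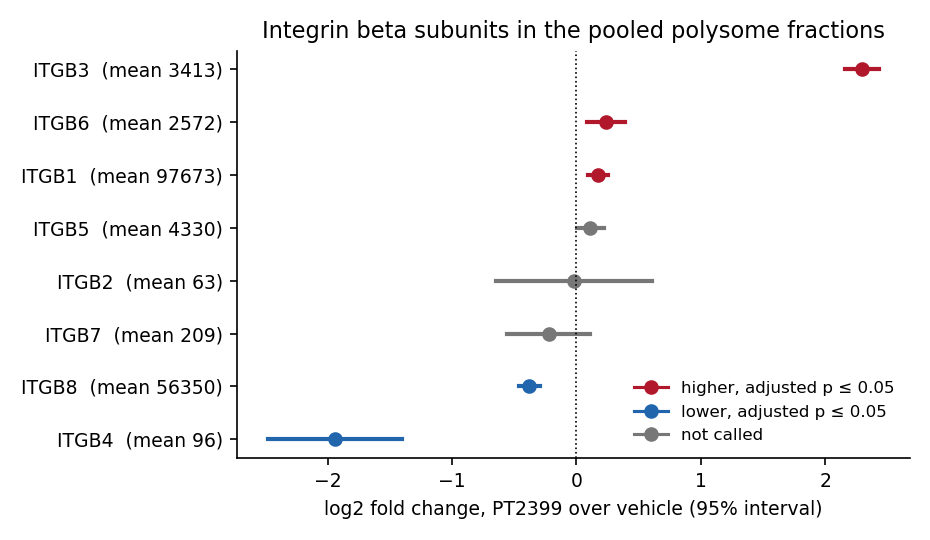
Log2 fold change of PT2399 over vehicle (horizontal axis) for the 8 integrin beta subunits, with the mean normalized count of each over 6 libraries beside its symbol; points are the deposited estimates, bars their 95% intervals, and colours the call at an adjusted p of 0.05. ITGB3 at 2.30 and ITGB4 at -1.94 stand apart, and the intervals of the other 6 subunits lie between -0.64 and 0.61.

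ITGB3 rose most in the family. Known as the platelet and osteoclast beta chain and as a vitronectin receptor of tumour cells, it went from 1155 normalized counts in the vehicle group to 5672 in the PT2399 group, at a mean of 3413. This is a 4.91-fold rise, a log2 fold change of 2.30 with an SE of 0.07 and a 95% interval from 2.16 to 2.44, with a Wald adjusted p of 4.03e-227. Ordered by fold change it stood at rank 16 of all 15634 tested genes and at rank 3 of the 12219 whose mean reached 100. Its SE was close to the median of 0.07 for genes of like abundance. The gene (ENSG00000259207) lies on chromosome 17 between 47253827 and 47313743 (GRCh38) and is protein coding.

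ITGB4 fell most. This subunit, whose long cytoplasmic tail binds plectin, went from 153.1 to 39.9 normalized counts and so to 26.0% of its vehicle level (95% interval 17.9% to 37.8%). The log2 fold change was -1.94 (SE 0.28, 95% interval -2.48 to -1.40; Wald adjusted p = 5.05e-11), rank 44 from the bottom of all tested genes. ITGB4 was scarce in these fractions: only 21.5% of tested genes had a mean below its 96.5 normalized counts, and its SE was above the median of 0.23 for genes of like abundance. The gene (ENSG00000132470) lies on chromosome 17 between 75721459 and 75757818 (GRCh38). There it overlaps GALK1, the galactokinase gene, which did not pass the test (log2 fold change 0.01, SE 0.15, adjusted p = 0.967), and although the library kit keeps strand, the sources used here do not give whether the counting used it.

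ITGB8, an activator of latent TGF-beta when paired with ITGAV, was the other subunit that fell. It was abundant, at 63675 normalized counts in the vehicle group and 49026 in the PT2399 group, and fell to 77.0% of its vehicle level (95% interval 72.6% to 81.7%). The log2 fold change was -0.38 (SE 0.04) with a Wald adjusted p of 2.06e-16. Against a null of a change of up to 1.2-fold, the fall of ITGB8 did not pass (adjusted p = 0.155). The gene (ENSG00000105855) lies on chromosome 7 between 20329766 and 20415754 (GRCh38).

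The rises of ITGB1 and ITGB6 were small. ITGB1 (ENSG00000150093, chromosome 10, 32900318 to 32958230), the most abundant subunit, went from 91840 to 103507 normalized counts, a log2 fold change of 0.17 (SE 0.04, adjusted p = 2.35e-04) or 113% of vehicle. The mean of ITGB1 was above that of 99.9% of tested genes. ITGB6 (ENSG00000115221, chromosome 2, 160099671 to 160200272), an epithelial subunit that also activates latent TGF-beta, went from 2360.2 to 2783 normalized counts, a log2 fold change of 0.24 (SE 0.08, adjusted p = 0.0137). Neither rise passed against a null of up to 1.2-fold (each adjusted p = 1 in that test), and that of ITGB6 did not pass at an adjusted p of 0.01.

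The remaining subunits did not pass the test. ITGB5 (ENSG00000082781, chromosome 3, 124761948 to 124901418), a vitronectin receptor chain, had 4162 normalized counts in the vehicle group and 4499 in the PT2399 group, a log2 fold change of 0.11 (SE 0.05, unadjusted p = 0.0400, adjusted p = 0.132), with a 95% interval of 0.01 to 0.22. The interval of ITGB5 overlapped those of ITGB1 and ITGB6. It held the estimate of ITGB1 (0.17) but ended just below that of ITGB6 (0.24). ITGB7 (ENSG00000139626, chromosome 12, 53191323 to 53207251) had 224.8 and 192.6 normalized counts, with a log2 fold change of -0.22 (SE 0.17, 95% interval -0.56 to 0.11, adjusted p = 0.397). ITGB2 (ENSG00000160255, chromosome 21, 44885953 to 44928815) had 62.9 and 62.1 normalized counts, with a log2 fold change of -0.02 (SE 0.32, adjusted p = 0.979), and its 95% interval of -0.64 to 0.61 spans a level of 64.0% to 152% of vehicle. The interval of ITGB2 thus holds changes larger than those called in ITGB1, ITGB6 and ITGB8, and that of ITGB7 holds a fall larger than that of ITGB8 but no rise of the size of ITGB1. ITGB7 overlaps ZNF740 (0.02, SE 0.11) and ITGB2 overlaps its antisense RNA ITGB2-AS1, which had a mean of only 12.7 normalized counts.

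The reference sequence before 1 start site each is shown for the called subunits that the RefSeq table of start windows holds: ITGB8, which fell, and ITGB1 and ITGB6, which rose. Each window is 300 bases, 250 before and 50 after a listed start, 5′ to 3′ on the strand of the gene (GRCh38.p14), and capitals mark the core of the HIF binding motif, ACGTG or GCGTG on either strand (CACGT or CACGC when it lies on the other strand).
ITGB8, chr7:20330650-20330949, plus strand: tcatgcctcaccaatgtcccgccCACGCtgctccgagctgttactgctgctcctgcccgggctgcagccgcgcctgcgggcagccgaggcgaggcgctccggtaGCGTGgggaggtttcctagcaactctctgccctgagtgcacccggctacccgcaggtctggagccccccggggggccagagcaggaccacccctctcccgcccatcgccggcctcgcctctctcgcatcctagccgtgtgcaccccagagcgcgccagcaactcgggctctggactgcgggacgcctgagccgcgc
ITGB1, chr10:32958181-32958480, minus strand: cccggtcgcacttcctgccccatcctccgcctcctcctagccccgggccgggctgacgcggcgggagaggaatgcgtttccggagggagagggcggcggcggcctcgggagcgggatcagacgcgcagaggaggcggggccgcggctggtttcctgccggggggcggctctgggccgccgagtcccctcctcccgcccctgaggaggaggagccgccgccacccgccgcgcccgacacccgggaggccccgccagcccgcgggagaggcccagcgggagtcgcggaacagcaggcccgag
ITGB6, chr2:160200223-160200522, minus strand: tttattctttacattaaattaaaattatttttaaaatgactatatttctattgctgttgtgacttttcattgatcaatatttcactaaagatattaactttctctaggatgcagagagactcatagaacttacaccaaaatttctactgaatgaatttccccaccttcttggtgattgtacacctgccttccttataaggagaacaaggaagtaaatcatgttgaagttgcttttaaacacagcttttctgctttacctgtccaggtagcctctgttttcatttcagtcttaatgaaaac

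The ITGB8 window held 2 matches to this core, both to GCGTG, with their first base at -227 (on the opposite strand) and -146 from the start. This window, with both matches, lies inside the span of the gene, which begins at 20329766. The windows shown for ITGB1 and ITGB6 hold the outer start of their genes. Of the 2 windows listed for ITGB1, the one shown, 78.3% G or C with 39 CpG dinucleotides, held 0 matches, and the other, chr10:32935509-32935808, 40.7% G or C with 4 CpG, also held 0. The ITGB6 window, 31.7% G or C with 0 CpG, held 0 as well. Of the other subunits, ITGB7 had 1 match in its window, and 2 of the 3 windows of ITGB5 had 1 and 4. No window was listed for ITGB2, ITGB3 or ITGB4. As 48.4% of all 35116 windows hold at least 1 match, these counts describe the letters and say nothing of binding. The median window of the table had 58.7% G or C and 14 CpG.

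In the order of fold changes, from ITGB3 through ITGB6, ITGB1, ITGB5, ITGB2, ITGB7 and ITGB8 to ITGB4, most neighbours had overlapping 95% intervals. The exceptions were the ends: ITGB3 lay 2.06 above ITGB6 on the log2 scale and ITGB4 lay 1.56 below ITGB8, both without overlap. ITGB8 also lay wholly below ITGB5, ITGB1 and ITGB6, whose intervals are above 0 while that of ITGB8 ends at -0.29.

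**Figure D2:**
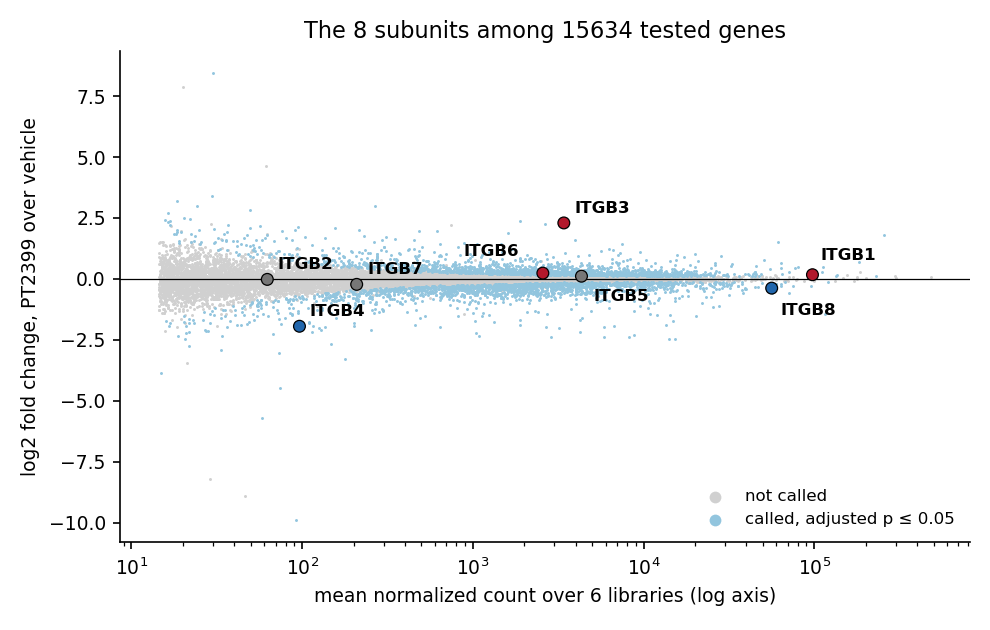
Log2 fold change of PT2399 over vehicle (vertical axis) against the mean normalized count over 6 libraries (horizontal log axis) for 15634 tested genes, called genes in light blue and others in grey, with the 8 subunits as larger points (red higher, blue lower, dark grey not called). ITGB3 lies at the upper edge of the genes of its abundance, and ITGB1 and ITGB8 lie far to the right with small changes.

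Levels can be set side by side only per length, so each was divided by the length of the gene's MANE Select transcript, the agreed reference transcript. On that scale ITGB1 led in the vehicle group at 24589 normalized counts per kb, followed by ITGB8 at 7096, ITGB5 at 937 and ITGB6 at 509. ITGB3 had 194, ITGB7 80.1, ITGB4 26.0 and ITGB2 22.4 normalized counts per kb. In the PT2399 group ITGB3 stood at 955 normalized counts per kb, above ITGB6 at 599.7 and beside ITGB5 at 1013, while ITGB4 at 6.76 was now below ITGB2 at 22.1. The order of ITGB1, ITGB8 and ITGB5 was the same in both groups.

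As shares of the per-length sum over the family, ITGB1 held 73.5% in the vehicle group and 77.3% in the PT2399 group, and ITGB8 held 21.2% and 15.2%. ITGB3 went from 0.581% to 2.66% of this sum. Among the chains that can pair with ITGAV, ITGB8 exceeded ITGB3 by 36.5 times per kb in the vehicle group and by 5.72 times in the PT2399 group. The per-length sum itself was 1.07 times as high with PT2399. With the longest coding transcript of each gene in place of the reference one, the share of ITGB1 was 68.3% and 72.6% and that of ITGB3 0.695% and 3.22%. These shares carry no error, as they were made from pooled means.

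**Figure D3:**
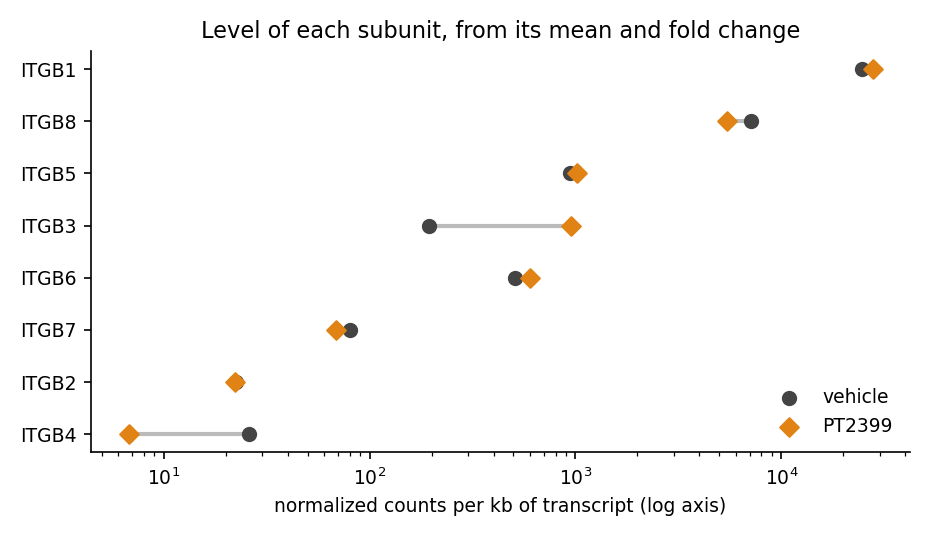
Normalized counts per kb of the reference transcript (horizontal log axis) for each subunit in the vehicle group (circles) and the PT2399 group (diamonds), worked out from the deposited mean and fold change and without error bars. ITGB1 leads in both groups, and ITGB3 moves from 194 to 955, next to ITGB5.

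The alpha chains with which these subunits pair moved in both directions. Of 18 alpha subunit genes 11 were tested, with 4 called higher, 3 called lower and 4 uncalled. Their called share was 63.6%, against 23.0% of all tested genes, 34.4% of those whose mean reached 1000 and 13.2% of those below it. Their median log2 fold change was -0.08. ITGAV, the shared partner of ITGB3, ITGB5, ITGB6 and ITGB8 and one of those of ITGB1, rose by 0.29 (SE 0.05, adjusted p = 1.13e-06). ITGA6, the partner of ITGB4 and one of those of ITGB1, fell by 0.30 (SE 0.07, adjusted p = 3.47e-04). This was a smaller change than that of ITGB4, and which pair it concerned was not tested. Among the partners of ITGB1, the fibronectin receptor chain ITGA5 fell by 0.30 (SE 0.05) and the collagen receptor chain ITGA2 fell by 0.33 (SE 0.07), while ITGA1, another collagen receptor chain, rose by 0.56 (SE 0.12). ITGA3, a laminin receptor chain, at -0.08 (SE 0.05) and ITGAM, a partner of ITGB2, at 0.37 (SE 0.39) were not called. Of the other leukocyte alpha chains, ITGAX, also a partner of ITGB2, rose by 0.70 (SE 0.24, adjusted p = 0.0157) and ITGAE, a partner of ITGB7, rose by 0.36 (SE 0.13, adjusted p = 0.0300). ITGA2B, the platelet partner of ITGB3, was at a mean of 18.3 normalized counts with a log2 fold change of -0.17 (SE 0.71) and was not called.

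The list of integrin activators and inhibitors holds proteins that bind the tails of beta chains and others, such as APBB1IP, that act through them. Of 22 tested activators and inhibitors 6 were higher, 2 lower and 14 uncalled, at a median log2 fold change of 0.03. The called share was 36.4%, against 23.0% of all tested genes and 34.4% of those whose mean reached 1000. DAB2, an endocytic adaptor that binds integrin tails, rose by 0.66 (SE 0.06, adjusted p = 9.78e-30), and the actin crosslinker ACTN1 rose by 0.35 (SE 0.05). APBB1IP, the RAP1 effector that brings talin to integrins, fell by 0.52 (SE 0.11, adjusted p = 3.84e-05). Of the talins, TLN1 at 0.04 (SE 0.05) was not called, whereas TLN2 rose by 0.39 (SE 0.11, adjusted p = 0.00253) at a mean of 2242 normalized counts. ACTN4 at 0.06 (SE 0.05) was not called.

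Of 18 tested genes of focal adhesion signalling 8 were higher, 0 lower in the DESeq2 Wald test and 10 not called, with a median log2 fold change of 0.17. All of these tested genes but NEDD9 and PTK2B had a mean of at least 1000, and 8 of 18 is to be read against the 34.4% of genes at that abundance called in either direction. At an unadjusted p under 0.05 the count of genes on the lower side was 0 as well. NEDD9, a scaffold at a mean of 83.3 normalized counts, rose by 1.04 (SE 0.28, adjusted p = 0.00138). The related scaffold BCAR1 rose by 0.36 (SE 0.07), zyxin (ZYX) by 0.34 (SE 0.06), RSU1, a partner of the ILK complex, by 0.31 (SE 0.06) and vinculin (VCL) by 0.23 (SE 0.04). LIMS1 at 0.02 (SE 0.06) and paxillin (PXN) at 0.08 (SE 0.05) were not called. In contrast to ITGB4, none of the 4 tested hemidesmosome genes was called by the Wald test or had an unadjusted p under 0.05. Plectin (PLEC) at -0.04 (SE 0.05) and DST at -0.07 (SE 0.05), both of which anchor ITGB4 to filaments, had narrow intervals around 0. COL17A1, scarce at a mean of 49.6 normalized counts, had 0.05 (SE 0.49). Its 95% interval, from -0.91 to 1.01, leaves room for a large change. Of 13 tested genes of integrin endocytosis and recycling 15.4% were called, against 23.0% of all tested genes and 34.4% of those whose mean reached 1000. Of these, 1 was higher (AP2M1, a clathrin adaptor subunit, 0.25, SE 0.05) and 1 lower (NUMB, an endocytic adaptor, -0.21, SE 0.06). The other 11 were not called, RAB11A (-0.08) and ARF6 (-0.07) among them.

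Among the tested genes of the integrin-related lists, the largest change was in a matrix protein that these receptors bind, tenascin C. Of 15 tested ligands and latent TGF-beta partners 6 were higher, 3 lower and 6 uncalled, at a median log2 fold change of 0.30. The called share was 60%, against 23.0% of all tested genes, 34.4% of those whose mean reached 1000 and 13.2% of those below it. FN1, fibronectin, rose by 1.80 (SE 0.05) at a mean of 256040 normalized counts, and THBS1, thrombospondin 1, rose by 0.48 (SE 0.04). TNC, tenascin C, rose by 3.00 (SE 0.22) at a mean of only 265.8. VTN, vitronectin, rose by 1.75 (SE 0.18, adjusted p = 2.38e-21) at a mean of 230.3. The other called rises were EDIL3 at 1.06 (SE 0.18, adjusted p = 4.99e-08) and MFGE8 at 0.54 (SE 0.06, adjusted p = 2.71e-15). CYR61, also on this list, fell by 0.24 (SE 0.05, adjusted p = 4.08e-05) at a mean of 32053 normalized counts. SPP1, osteopontin, at 0.01 (SE 0.05) and fibrillin FBN1 at -0.02 (SE 0.07) were not called. Among the proteins that hold latent TGF-beta, LTBP1 fell by 1.66 (SE 0.63, adjusted p = 0.0389) at a mean of 21.8 normalized counts and LTBP3 fell by 0.24 (SE 0.07), while TGFB1 at 0.04 (SE 0.08) and TGFB3 at 0.37 (SE 0.17) were not called.

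**Figure D4:**
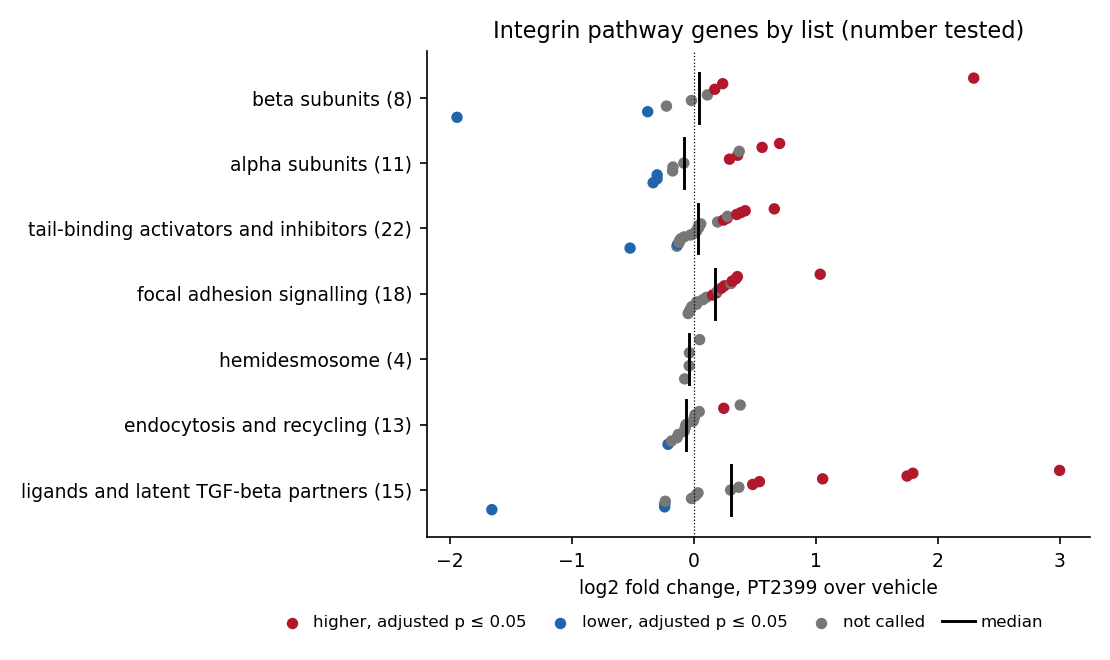
Log2 fold change of PT2399 over vehicle (horizontal axis) for the tested genes of each integrin-related list, with the number tested in parentheses; each point is a gene, coloured by its call at an adjusted p of 0.05, and black bars are medians. The focal adhesion list has 8 genes called higher and 0 called lower, and the ligand list reaches 3.00 with TNC.

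The fractions carried markers of renal epithelium and little of other cell types. All 8 markers of renal epithelium and ccRCC had a row and 7 were tested, of which 1 was higher, 3 lower and 3 uncalled, at a summed level of 30031 normalized counts in the vehicle and 31494 in the PT2399 group. PAX8 had a mean of 17472 normalized counts and was not called (0.05), and EPCAM had a mean of 5.92 and was not tested. KRT8, an epithelial keratin with a mean of 9363, was the 1 that rose, by 0.26. NDUFA4L2, also on this list, was not called (-0.03, SE 0.26) at a mean of 101 normalized counts. CA9, a HIF target that marks ccRCC, fell by 1.27 on the log2 scale (SE 0.17, adjusted p = 1.04e-12) at a mean of 258, LRP2, a proximal tubule receptor, fell by 3.87 (SE 1.21, adjusted p = 0.00851) at a mean close to the lowest tested, and PAX2, a renal transcription factor, fell by 0.29 (SE 0.07, adjusted p = 4.64e-04). The summed level is mostly that of PAX8 and KRT8 and does not follow the lower markers, whose part in the values of the beta subunits was not tested. Of 10 leukocyte markers 7 had a row, 6 of them at a mean under 10 normalized counts, and the summed level was 51.5 in the vehicle and 49.6 in the PT2399 group, most of it from CD79A, while CD3E, CD2 and MS4A1 had no row. PTPRC, which marks leukocytes in general, was at a mean of 1.85. Of 8 platelet and endothelial markers 6 had a row, with a summed level of 35.9 in the vehicle and 46.8 in the PT2399 group, with 0 calls in the Wald test among the 1 tested and none at an unadjusted p under 0.05. Of 6 fibroblast markers 5 had a row, with summed levels of 251.7 and 213.6 and 0 calls among the 2 tested, none of which had an unadjusted p under 0.05.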

How the data were processed

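The deposited table holds the authors' DESeq2 comparison of 3 PT2399 with 3 vehicle polysome-seq libraries. Per the submitters' processing notes and the methods, reads were aligned to hg38 with STAR 2.7.3a, quantified with Salmon and tested with DESeq2 1.22.1. The deposited mean normalized count over 6 libraries is a signal scaled by the authors. The deposited log2 fold change and its SE, the Wald score and the p-value with its adjusted p-value are the authors' own statistics, here described and not refitted. The Wald score equals the fold change over its SE, and adjusting the p-values of the 15634 tested genes gave the deposited adjusted p. Tested genes are those with an adjusted p, the lowest at a mean of 14.5.

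Intervals of 95% were computed from the SE. Whole reads per library were sought, but of 7134 genes with a mean under 0.9 only 25.5% were sums of whole reads over common factors (tolerance 3e-14), so no reads of members were recovered. Those factors ran from 0.782 to 1.19. Total reads per library are unknown.

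The members and lists were chosen with earlier results of these data known. All members are named, with up to 4 called genes of smallest adjusted p and 2 uncalled genes of highest mean per list, and the nearest tested neighbours of called members; a gene that this rule names is not reported here. ITGA6, ITGAE, ITGAX, TLN2, NEDD9, PTK2B, CYR61, TGFB1, TGFB3, LTBP1, LTBP3, EPCAM, PTPRC, markers of other cell types, overlapping genes and genes with ITGB in their symbol were chosen outside that rule. So were COL17A1, EDIL3, MFGE8 and NDUFA4L2. Places and start windows are from RefSeq on GRCh38.p14, and transcript lengths from GENCODE release 44. Adjustment and the 1.2-fold test were tested on simulated data. Alternatives were other thresholds, filters, nulls and centres. Computation used Python 3.11.15 with scipy 1.17.1, numpy 2.4.6 and pandas 2.3.3, and plots used matplotlib 3.10.9.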

Additional observations from a re-analysis of the deposited data

How the results depend on the processing

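Calls of the beta subunits depended on the size of change asked for and, for ITGB4 and ITGB6, on the filter or threshold. With a null of up to 1.2-fold, 1 subunit was higher (ITGB3) and 1 lower (ITGB4), and 712 of all tested genes were called in place of 3594. With a log2 fold change of 1 or more in size, ITGB3 and ITGB4 and 320 genes in all were called. With genes below a mean of 100 left out, 1 subunit was lower (ITGB8), because ITGB4 at a mean of 96.5 then left the test. An adjusted p of 0.01 left 2 subunits higher, without ITGB6, and 2 lower. Adjustment over all 30341 p-values and over protein-coding genes alone gave 3 higher and 2 lower, the same subunits. Centring on the median of other sets of genes changed no call, and turned the sign only of ITGB2, from -0.02 to 0.034 when centred on genes of like abundance. The counts of called alpha subunits (5 to 7) and of adaptor, signalling, hemidesmosome and recycling genes (17 to 18) stayed within 1.5 times under the 3 alternatives run on them. No paired analysis was possible because the table has no column per library, and leaving out a library was not run for the same reason. A different scaling of the libraries could not be tried either.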

Other observations

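The nearest tested gene on each side of each called subunit is given, whatever its distance. Some of these genes were called, as were 23.0% of all tested genes, and a link to the subunits was not tested. EFCAB13, which begins 10.2 kb beyond ITGB3, rose by 1.01 (SE 0.29, adjusted p = 0.00296) at a mean of 78.1 normalized counts, while CDC27 on the other side of ITGB3 had 0.13 (SE 0.05, adjusted p = 0.0537). MACC1, 112 kb from ITGB8, fell by 1.91 (SE 0.61, adjusted p = 0.0106) at a mean of 43.6. SP4, as far as 1012 kb beyond ITGB8, had -0.32 (SE 0.13, adjusted p = 0.0614). CCDC7, 17.5 kb from ITGB1, fell by 0.71 (SE 0.23, adjusted p = 0.0132), opposite in sign to ITGB1, and NRP1, 219 kb away on the other side, had -0.05 (SE 0.05). Beside ITGB4, the histone gene H3F3B fell by 0.21 (SE 0.05), and SAP30BP had -0.09 (SE 0.07). PLA2R1 and RBMS1 beside ITGB6, at 0.11 (SE 0.09) and 0.07 (SE 0.05), were not called.

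Genes with ITGB in their symbol that are not integrin chains are given by their own values. ITGB3BP, which encodes a centromere protein, fell by 0.44 (SE 0.09, adjusted p = 4.74e-06), opposite in sign to ITGB3. ITGB1BP1, an inhibitor of ITGB1 activation, had -0.03 (SE 0.11) and was not called. ITGBL1 at a mean of 6.96 and ITGB1BP2 at 11.8 normalized counts were below the range tested.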
